A study of Mus musculus with 16 samples.

Results

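The Dlk1-Meg3 imprinted domain of mouse chromosome 12 was described here through the accessible sites that lie from 51 kb before Dlk1 to the far end of Mirg. Members were all peaks of the deposited ATAC-seq list whose start lies from 109.4 to 109.8 Mb (mm10), a window of 400 kb, which gave 8 of 70150 peaks. The authors' annotation named 3 of them for Dlk1, 1 for Gm34081, 1 for Gm27528, 2 for Meg3 and 1 for Mirg. The window was chosen by the raw counts of its peaks in these same libraries. The levels and changes of the 8 peaks are therefore given as a description. Each fitted change has a standard error (SE) derived from the F statistic of its fit, and no p-value is given or read from it.

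The assay, ATAC-seq, reads open chromatin as the DNA that the Tn5 transposase can reach and tag. It was run on 16 libraries, 4 for each of 4 genotypes, from E14 cells, a line of mouse embryonic stem (ES) cells. One genotype was wild type (WT) and another a knockout of Supt7l (Supt7l KO), and in the remaining lines an AID tag was named for Zzz3 (AID-Zzz3) or Yeats2 (AID-Yeats2). ZZZ3 and YEATS2 belong to the ATAC coactivator complex and SUPT7L to the SAGA coactivator complex, both of which acetylate histones. An AID tag marks a protein for degradation once auxin is present, and the cells of all 4 genotypes, WT included, had been given auxin for 24 h. Cells grew on gelatine in medium with serum, LIF, CHIR99021 and PD0325901. The loss of the tagged or deleted proteins was not measured here. Clones (2, independent) and days (2) are mentioned for the series, but neither could be assigned to the libraries, so the 4 libraries of a line are treated as independent although some may share a clone.

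Imprinted genes are transcribed mainly from the copy inherited from one parent. In this domain the protein-coding genes Dlk1, Rtl1 and Dio3 are expressed from the paternal chromosome, and the noncoding RNAs Meg3, Rian and Mirg, with a large group of microRNAs and small nucleolar RNAs, from the maternal one. A methylated control region between Dlk1 and Meg3 sets this choice, and expression of the maternal noncoding RNAs is known to vary between pluripotent stem cell lines. The counts carry no information on parental origin, so the copies cannot be told apart, nor can fewer cells with an open site be told from less opening per cell.

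The promoters at both ends of the Dlk1-Meg3 interval are shown because the accessible sites lie differently around them. They are the RefSeq windows of 300 bases on GRCm38.p6, with 250 bases before the annotated start and 50 after it, written 5′ to 3′ on the gene's strand. Another window, from 1 of the RefSeq starts of Gm34081, is the promoter closest to the peak just before Meg3. Capitals mark matches to TGACGTCA (the cAMP response element), TGCCGC or its reverse complement GCGGCA (the hexamer bound by ZFP57, a zinc finger protein that protects imprints) and TATAAA or its reverse complement TTTATA (the TATA box), searched on both strands.
Meg3, + strand, chr12:109540746-109541045: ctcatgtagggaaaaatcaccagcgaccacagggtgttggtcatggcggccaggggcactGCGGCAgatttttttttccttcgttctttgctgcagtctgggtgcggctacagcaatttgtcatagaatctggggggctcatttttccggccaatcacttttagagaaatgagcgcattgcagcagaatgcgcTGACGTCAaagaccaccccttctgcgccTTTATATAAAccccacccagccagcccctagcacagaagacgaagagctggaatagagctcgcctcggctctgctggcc
Dlk1, + strand, chr12:109452573-109452872: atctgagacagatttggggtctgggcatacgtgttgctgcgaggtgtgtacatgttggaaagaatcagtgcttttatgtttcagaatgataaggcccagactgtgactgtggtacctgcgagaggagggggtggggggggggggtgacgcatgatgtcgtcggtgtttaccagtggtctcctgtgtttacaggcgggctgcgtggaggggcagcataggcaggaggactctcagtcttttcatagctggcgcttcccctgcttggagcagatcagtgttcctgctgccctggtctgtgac
Gm34081, - strand, chr12:109539715-109540014: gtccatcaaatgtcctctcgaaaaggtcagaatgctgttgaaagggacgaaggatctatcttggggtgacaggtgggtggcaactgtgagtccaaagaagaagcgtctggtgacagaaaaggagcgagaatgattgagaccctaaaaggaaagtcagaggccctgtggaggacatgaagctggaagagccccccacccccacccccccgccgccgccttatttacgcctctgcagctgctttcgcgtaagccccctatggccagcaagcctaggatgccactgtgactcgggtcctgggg

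The Meg3 promoter printed above held 1 TGACGTCA, a match found in 1.79% of 32851 RefSeq mouse promoters, and 1 GCGGCA, from a hexamer found in 11.6%. It held 2 overlapping matches to the TATA box, which 13.6% of promoters contain. It had 13 CG dinucleotides against a median of 7, with 62.1% of promoters below it. RefSeq also lists a later start of Meg3, whose promoter at 109545148 to 109545447 had 1 CG and none of these motifs. The Dlk1 promoter, with 9 CG, and the Gm34081 window, with 11, held none of these motifs. The CTCF core motif, searched on both strands, matched none of the 3 windows and 0.0365% of all promoters. A match of letters is not a measured binding site.

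Of 12 RefSeq promoters of 7 genes in the window, 1 overlapped a peak, that of Dlk1. The Meg3 promoter printed above lay 1300 bp from the nearest peak, and the Gm34081 window printed above lay 269 bp from the same peak. The promoter of the later Meg3 start lay 1357 bp from the peak in the Meg3 exon. The promoters of Rian and Mirg were 59904 and 14726 bp from the nearest peak. RefSeq places 60 microRNA genes, with 112 mature microRNAs, in the window, and all 60 lie in the 206 kb between the Meg3 exon peak and the Mirg peak. None overlapped a peak, and the nearest, Mir1906-1, was 797 bp away. The accessible sites near Meg3 were therefore around its RefSeq starts and not on them, while the Dlk1 site covered the start.

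Levels below are CPM, the counts of a peak scaled by TMM to a common total of counts in peaks, with mean ± SD of 4 libraries. The libraries held between 2492045 and 5540559 counts in peaks. At this depth single sites of the domain held from 0 to 90 counts per library, and 3 counts, the limit that a count of 0 allows, corresponded to 0.630 to 0.923 CPM in the Supt7l KO libraries. All 9 listed ES cell markers, among them Pou5f1, Sox2 and Nanog, had a promoter peak. The 9 together summed to 258.3 to 294.3 CPM in WT, 249.0 to 295.6 in AID-Zzz3 and 266.4 to 298.8 in AID-Yeats2. In Supt7l KO they summed to 301.3 to 320.3 CPM, above every library of the other lines. Promoters in general leaned the same way. Of 15557 promoters, 1 per gene, 10672 had a positive log2 change in Supt7l KO against WT, with a median of 0.090. The higher sum is therefore not read as a trait of ES cell genes. Promoter accessibility also covered 16 of the 21 listed markers of other lineages, so it does not tell cell types apart by itself. Across the libraries, 3 primitive endoderm markers summed to 141.7 to 198.8 CPM and 5 trophoblast markers to 86.0 to 124.3. The sums were 93.1 to 117.0 for 3 neuroectoderm markers, 44.8 to 59.8 for 2 mesoderm markers and 30.8 to 50.5 for 3 fibroblast markers. Outside chromosome 12, only chromosomes Y and 17 were examined by region. The Supt7l KO libraries stood apart on chromosome Y and on part of chromosome 17, and other chromosomes were not examined in this way. The 7 tested peaks of chromosome Y held 114 to 370 counts per library in the other lines and 0 to 2 in Supt7l KO. On chromosome 17 past 70 Mb, the median log2 change of 739 peaks was -0.61 in Supt7l KO against WT. Over the same 739 peaks it was 0.28 in AID-Zzz3 and 0.24 in AID-Yeats2. The median over the 392 tested peaks from 100 to 110 Mb of chromosome 12, which hold the window, was 0.050 in Supt7l KO. All 4 Supt7l KO libraries share the loss of chromosome Y counts, so the knockout and the descent of its clones cannot be told apart in any value of Supt7l KO given here.

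**Figure D1:**
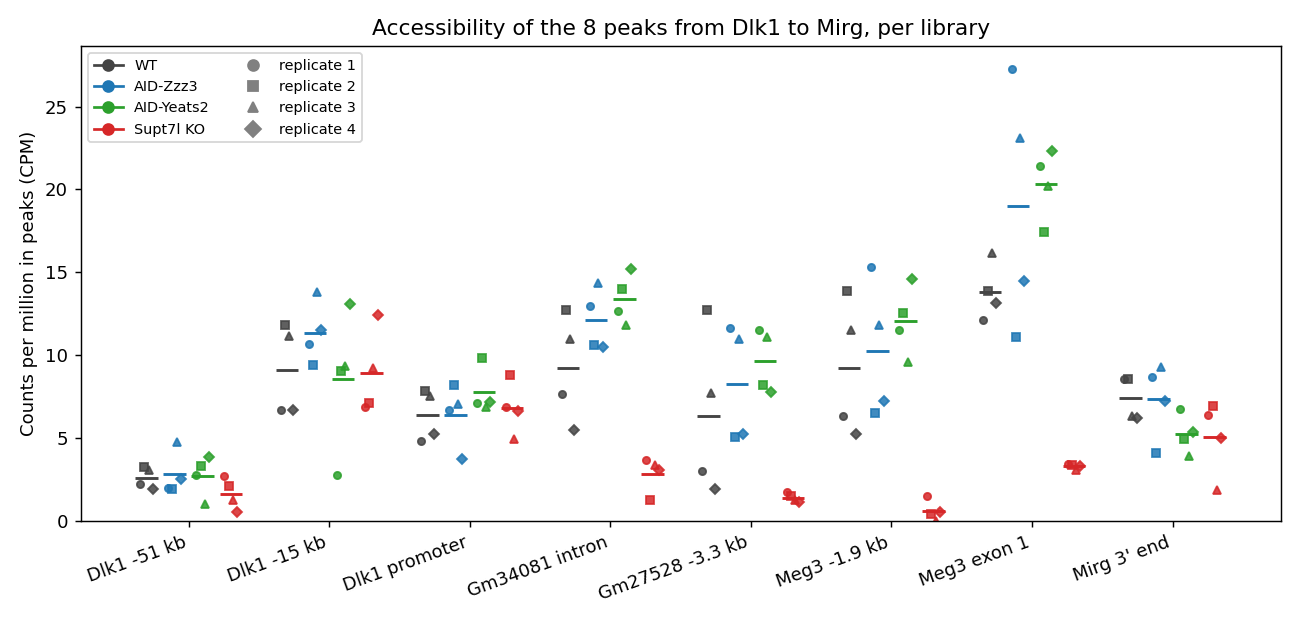
CPM (y axis) of the 8 peaks in order along chromosome 12 (x axis), with 1 point per library, coloured by genotype and shaped by replicate number, and a bar at the mean of 4 libraries. At the 4 peaks of Gm34081, Gm27528 and Meg3 the Supt7l KO points lie below all WT points, and at the other 4 they overlap them.

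In Supt7l KO cells the sites around Meg3 were far less accessible than in WT cells, while the summed Dlk1 sites were close to WT. The 4 peaks named for Gm34081, Gm27528 and Meg3 summed to 8.13 ± 1.59 CPM against 38.6 ± 13.3 in WT, which is 21.0% of the WT mean. The 3 Dlk1 peaks summed to 17.4 ± 1.85 CPM against 18.1 ± 4.93, or 96.1% of WT. Between lines, deviations of libraries over all peaks correlated weakly, at 0.0163 to 0.111 within the numbers 1 and 2 or 3 and 4. Across these sets the correlations were -0.109 to -0.0167. The sum of the 4 peaks was therefore also taken within each set, a choice made after the data were seen. The Supt7l KO mean for the 4 peaks was 20.4% of WT among the libraries numbered 1 and 2 and 21.7% among those numbered 3 and 4 (n = 2 per line in each). In AID-Zzz3 it was 122.2% and 135.3% of WT, and in AID-Yeats2 132.8% and 155.9%. The window was chosen with the counts of both sets, so likeness between the sets is no replication.

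The peak nearest the Meg3 start on its 5′ side showed the lowest level of the 8 in Supt7l KO. Meg3 (ENSMUSG00000021268) is a long noncoding RNA, and this intergenic site of 656 bp at 109538791 to 109539446 (mm10) lay at -1883 bp from the nearest Meg3 start in the authors' annotation. The 4 WT libraries gave 6.33, 13.9, 11.5 and 5.26 CPM, and the 4 Supt7l KO libraries gave 1.47, 0.420, 0 and 0.552. Every Supt7l KO library was below every WT library, and 3 of the 4 were below the level of 3 counts. The 4 Supt7l KO libraries held 10 counts together and the 4 WT libraries 180. The mean was 0.611 ± 0.620 CPM against 9.24 ± 4.12, or 6.61% of WT, and the fitted log2 change was -3.80 ± 0.43 (SE). Among the 69685 tested peaks off chromosome Y this was the lowest log2 change of the comparison.

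The same site was open in both ATAC lines. AID-Zzz3 libraries gave 15.3, 6.50, 11.8 and 7.25 CPM and AID-Yeats2 libraries 11.5, 12.5, 9.60 and 14.6. Both ranges overlapped that of WT. The log2 changes against WT were 0.12 ± 0.28 in AID-Zzz3 and 0.38 ± 0.28 in AID-Yeats2 (SE).

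The second Meg3 peak was the most open of the 8 in WT by CPM. It spans 1062 bp at 109542730 to 109543791, 992 bp past a Meg3 start, and the authors' annotation puts it in exon 1 of 7 of a Meg3 transcript, with a C-rich low-complexity stretch. WT libraries gave 12.1, 13.9, 16.2 and 13.1 CPM, and Supt7l KO libraries 3.43, 3.36, 3.08 and 3.31. The Supt7l KO values sat close together and all lay under the WT range. The mean was 3.30 ± 0.155 CPM against 13.8 ± 1.73, or 23.8% of WT, and the log2 change was -2.06 ± 0.26 (SE). The counting error exceeds this spread: the exact Poisson 95% interval of the lowest Supt7l KO library runs from 1.47 to 5.66 CPM.

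At this exon the means of the ATAC lines, 19.0 CPM in AID-Zzz3 and 20.3 in AID-Yeats2, were above the 13.8 of WT. AID-Zzz3 libraries gave 27.3, 11.1, 23.1 and 14.5 CPM, which reach to both sides of the WT range. AID-Yeats2 libraries gave 21.4, 17.5, 20.2 and 22.3 CPM. All 4 of these were above all 4 WT libraries, as at 4.09% of all tested peaks. The log2 changes were 0.43 ± 0.21 and 0.55 ± 0.21 (SE).

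The intergenic peak named for Gm27528 lies between the peaks named for Gm34081 and Meg3, where the control region of the domain is also found. No annotation of that region was used here. Gm27528 (ENSMUSG00000113704) is an unverified transcript in the Ensembl annotation, and the site is narrow, 241 bp at 109527468 to 109527708, at -3304 bp from its start. WT libraries gave 2.98, 12.7, 7.73 and 1.91 CPM, and Supt7l KO libraries 1.72, 1.47, 1.23 and 1.1. The Supt7l KO libraries were all below WT, but WT 4 was close to them. The mean was 1.38 ± 0.271 CPM against 6.34 ± 4.95 and the log2 change -2.15 ± 0.42 (SE).

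This site had the widest spread among WT libraries of the 8. Its WT standard deviation was 1.12 on the log2 scale, against a median of 0.32 over the 2000 tested peaks of most similar level, and its highest WT library was 6.65 times its lowest. Without WT 2, the highest, its log2 change was -1.61. AID-Zzz3 libraries gave 11.7, 5.06, 11 and 5.25 CPM. AID-Yeats2 libraries gave 11.5, 8.21, 11.1 and 7.75 CPM. Both sets overlapped WT, with log2 changes of 0.36 ± 0.32 and 0.60 ± 0.32 (SE).

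The peak named for Gm34081 is the member of this group farthest from Meg3. Gm34081 (ENSMUSG00000112977) is annotated as a long intergenic noncoding RNA that runs against the direction of Meg3, and the site of 1136 bp at 109499678 to 109500813 lies in intron 4 of 4. WT libraries gave 7.64, 12.7, 11 and 5.50 CPM and Supt7l KO libraries 3.68, 1.26, 3.38 and 3.04. No Supt7l KO library reached the WT range. The mean was 2.84 ± 1.09 CPM against 9.21 ± 3.25, or 30.8% of WT, with a log2 change of -1.73 ± 0.30 (SE). AID-Zzz3 libraries gave 13, 10.6, 14.4 and 10.5 CPM and AID-Yeats2 libraries 12.7, 14.0, 11.8 and 15.2. Both overlapped the WT range at its upper end, with log2 changes of 0.38 ± 0.25 and 0.54 ± 0.24 (SE).

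For all 4 peaks, the 4 Supt7l KO libraries lay below the 4 WT libraries, as at 3.67% of tested peaks. Their median log2 change was -2.10, against 0.0066 over all tested peaks. Per length, the 4 sites held different places in WT, and 3 of them were among the least open of the list in Supt7l KO. The Meg3 -1.9 kb site had 14.1 CPM per kb in WT, close to the median of 14.8 over all peaks, and 0.931 in Supt7l KO, where 0.0100% of peaks were below it. The exon site had 13 CPM per kb in WT, with 39.9% of peaks below it, and 3.10 in Supt7l KO, with 0.159%. The Gm34081 site was low already in WT, at 8.10 CPM per kb with 7.48% below, and had 2.50 in Supt7l KO with 0.0574%. The narrow Gm27528 site was high in WT, at 26.3 CPM per kb with 84.0% below, and had 5.73 in Supt7l KO with 2.83%.

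**Figure D2:**
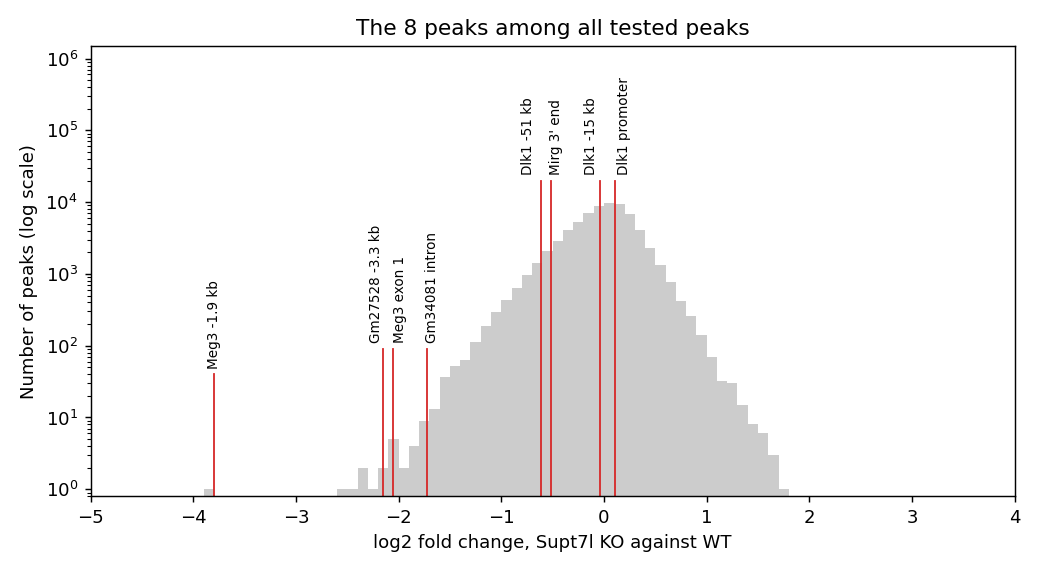
Histogram of the log2 fold change in Supt7l KO against WT over all tested peaks (x axis), with the number of peaks on a log scale (y axis) and red lines at the 8 peaks of the window. The 4 peaks of Meg3, Gm27528 and Gm34081 lie between -3.80 and -1.73 and the other 4 between -0.62 and 0.11; the 7 peaks of chromosome Y are beyond the left edge.

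At Dlk1, a transmembrane ligand of the Notch family expressed from the paternal chromosome, the promoter peak of 671 bp at 109452689 to 109453359 had similar levels in Supt7l KO and WT. WT libraries gave 4.84, 7.86, 7.55 and 5.26 CPM and Supt7l KO libraries 6.87, 8.81, 4.92 and 6.63. The groups overlapped, and the highest and the second lowest of the 8 libraries were both Supt7l KO. The means were 6.38 ± 1.55 and 6.81 ± 1.59 CPM and the log2 change 0.11 ± 0.28 (SE). AID-Zzz3 averaged 6.41 ± 1.89 CPM and AID-Yeats2 7.76 ± 1.40, with log2 changes of 0.0044 ± 0.28 and 0.30 ± 0.28 (SE).

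The other Dlk1 peaks are intergenic and lie upstream. The peak 15 kb before Dlk1, at 109437402 to 109438296, had 9.09 ± 2.77 CPM in WT, 11.3 ± 1.85 in AID-Zzz3, 8.57 ± 4.28 in AID-Yeats2 and 8.91 ± 2.57 in Supt7l KO. Its log2 changes against WT ran from -0.047 to 0.31. One AID-Yeats2 library, number 1, was low there at 2.77 CPM, while the other 3 held 9.03 to 13.1. The peak 51 kb before Dlk1, at 109401295 to 109401455, was the weakest in WT with 2.61 ± 0.638 CPM. It had 1.64 ± 0.945 CPM in Supt7l KO (log2 change -0.62 ± 0.46, SE), with overlapping libraries of 2 to 17 counts.

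At the far end, the peak at the 3′ end of Mirg, a microRNA host RNA, spanned 109749756 to 109750268. WT libraries gave 8.57, 8.55, 6.30 and 6.21 CPM, AID-Yeats2 libraries 6.74, 4.93, 3.94 and 5.36, and Supt7l KO libraries 6.38, 6.92, 1.85 and 4.97. Both mutant ranges overlapped WT, and Supt7l KO 3 was the lowest of the 16 libraries. The log2 changes were -0.53 ± 0.30 in AID-Yeats2 and -0.52 ± 0.30 in Supt7l KO (SE). AID-Zzz3 was at 7.32 ± 2.31 CPM against 7.41 ± 1.33 in WT. Thus the RNA cluster's 2 annotated ends differed in Supt7l KO, with 23.8% of the WT mean at the Meg3 exon and 67.9% at the end of Mirg.

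**Figure D3:**
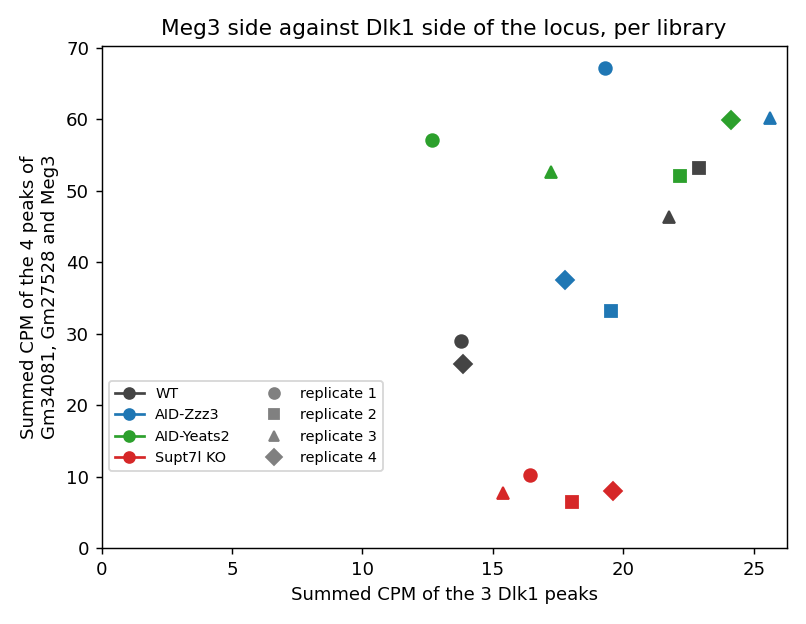
Summed CPM of the 4 peaks of Gm34081, Gm27528 and Meg3 (y axis) against summed CPM of the 3 Dlk1 peaks (x axis), 1 point per library, coloured by genotype and shaped by replicate number. The Supt7l KO libraries share the Dlk1 range of the other lines and lie between 6.51 and 10.3 on the y axis, under the lowest WT library at 25.8.

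The ratio of both sums within a library does not depend on library scaling. It was 2.11, 2.32, 2.13 and 1.86 in WT and 0.627, 0.360, 0.50 and 0.408 in Supt7l KO. AID-Zzz3 libraries gave 3.48, 1.70, 2.35 and 2.11 and AID-Yeats2 libraries 4.5, 2.35, 3.06 and 2.48. The Supt7l KO ratios were all under 1 and those of the other 12 libraries all above it. The mean ratio was 2.11 ± 0.189 in WT and 0.474 ± 0.117 in Supt7l KO. Over all 8 peaks the window kept 47.6% of the WT mean in Supt7l KO, and held 120.8% in AID-Zzz3 and 124.4% in AID-Yeats2.

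The 4 peaks of the Meg3 side had positive log2 changes in both lines, with medians of 0.37 in AID-Zzz3 and 0.54 in AID-Yeats2, against -0.0052 and -0.0015 over all tested peaks. Both comparisons and that of Supt7l KO use the same 4 WT libraries, so a low WT library moves all 3 in one direction.

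The lines were also set side by side without WT. For the mean of AID-Zzz3 and AID-Yeats2 over Supt7l KO, the log2 differences were 4.05 ± 0.40 at Meg3 -1.9 kb, 2.55 ± 0.24 at the Meg3 exon, 2.63 ± 0.38 at Gm27528 and 2.19 ± 0.27 at Gm34081 (SE). At the other 4 peaks they ran from 0.039 to 0.69. For AID-Yeats2 over AID-Zzz3 the log2 differences at the 4 Meg3-side peaks lay between 0.11 and 0.26, with standard errors of 0.21 to 0.32.

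In WT and AID-Zzz3, libraries of a single line also differed at the Meg3 side, and they did so at its 4 sites together. In WT, libraries 2 and 3 were above the line's mean and 1 and 4 below it at all 4 peaks, from 30.2% of the mean at Gm27528 in WT 4 to 200.7% at the same site in WT 2. In AID-Zzz3, libraries 1 and 3 were above the mean and 2 and 4 below it at all 4 peaks, from 58.4% to 149.8%. AID-Yeats2 libraries stayed between 79.6% and 121.1% of their mean, with no library on one side at all 4 peaks. WT 2 was only at 100.3% at the Meg3 exon. The summed levels were 29.1, 53.2, 46.4 and 25.8 CPM in WT, 67.2, 33.2, 60.2 and 37.5 in AID-Zzz3 and 57.1, 52.1, 52.7 and 59.9 in AID-Yeats2. The summed Dlk1 peaks split in the same way in WT, at 13.8, 22.9, 21.8 and 13.9 CPM. In WT the split was thus not particular to the Meg3 side. The Dlk1 sums were 19.3, 19.5, 25.6 and 17.8 in AID-Zzz3 and 12.7, 22.2, 17.2 and 24.1 in AID-Yeats2. Clone and day are not known per library, so their part in this pattern was not tested.

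**Figure D4:**
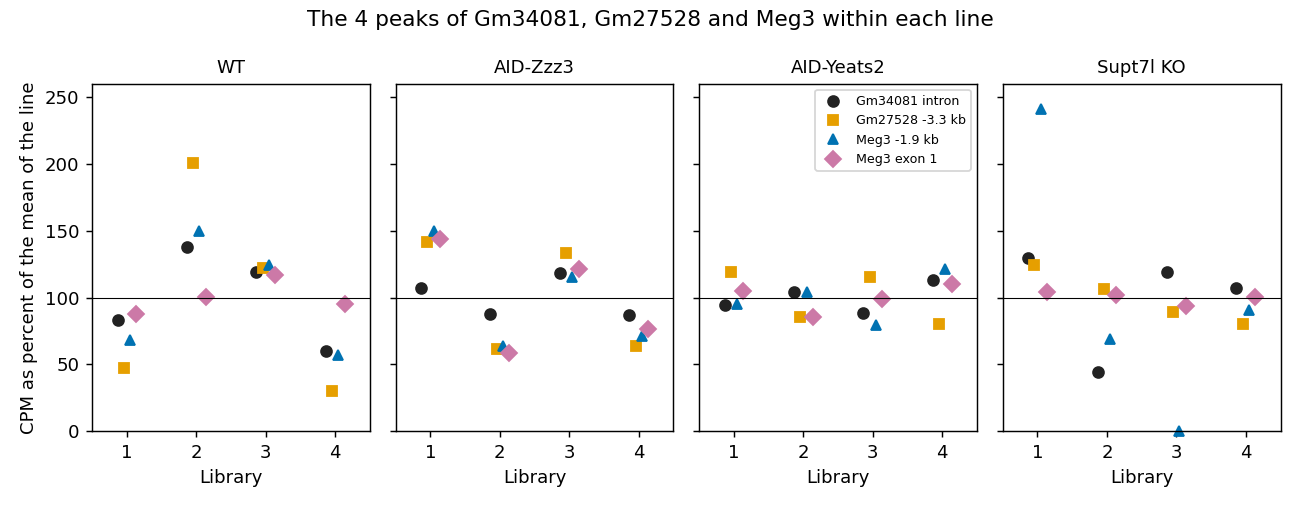
CPM of each library as a percent of the mean of its line (y axis) for the 4 peaks of Gm34081, Gm27528 and Meg3 (symbols), by library number (x axis), in 1 panel per line. In WT and AID-Zzz3 the 4 symbols of a library lie on the same side of 100, and in Supt7l KO the wide values rest on 0 to 15 counts.

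Across all 16 libraries the Meg3 exon peak moved with the other sites of its side. Pearson's r of log2 CPM with the exon peak was 0.96 for Meg3 -1.9 kb, 0.92 for the Gm34081 site and 0.89 for the Gm27528 site. It was 0.078 for the Dlk1 promoter, 0.072 and 0.51 for the other Dlk1 peaks and 0.42 for Mirg. The Supt7l KO libraries form a cluster of their own that carries much of this. Over the 12 other libraries the values were 0.75, 0.65 and 0.69 for the first 3 sites and 0.24 for the Dlk1 promoter. These are descriptions over libraries that share lines and depth.

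Outside the window, 34845 peaks above the median level were ranked by the same r over 16 libraries. The highest were an intergenic site nearest to the small nuclear RNA gene Gm25935 (chromosome 17, 93321481 to 93322523; r = 0.97, and 0.92 over the 12 libraries) and a site near the pseudogene AC151270.1 (chromosome 17, 78454841 to 78455805; 0.948 and 0.69). Next came sites near Gm22963 on chromosome 1 (0.943 and 0.49), in an intron of the lncRNA gene 1600019K03Rik on chromosome 16 (0.942 and 0.83) and in an intron near Gm18620 on chromosome 12 (0.941 and 0.77). Of the 10 highest, 4 lay in the stretch of chromosome 17 that was low in Supt7l KO.

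The neighbourhood was examined to see how far the low accessibility reached. The window's edges were set by the rule, and the log2 changes in Supt7l KO against WT were -0.27 at the last peak before it and -0.62 at the first inside, and -0.52 at the last inside and -0.74 at the first after it, a site named for Gm9661. Within 1 Mb on either side, 94 peaks were tested, 46 before the window and 48 after it. In Supt7l KO against WT, 0 were called (edgeR quasi-likelihood test, adjusted p under 0.05), where 0.342% of the 69692 tested peaks were higher and 0.745% lower. DESeq2 called 1 higher and 0 lower. At an unadjusted p under 0.05, 10.6% of the flank peaks were higher and 4.26% lower, against 5.64% and 6.74% of all tested peaks. The smallest adjusted p in the flanks was 0.0579 (edgeR), and their median log2 change was 0.11. In AID-Zzz3 edgeR called 0 of the 94, where 0.634% of all peaks were higher and 0.346% lower, and DESeq2 called 0. At an unadjusted p, 3.19% were higher and 10.6% lower, against 7.61% and 6.68% of all peaks. In AID-Yeats2 edgeR called 0, where 0.524% and 0.298% of all peaks were called, and DESeq2 called 1 higher. At an unadjusted p, 2.13% were higher and 8.51% lower, against 6.88% and 6.54%. The medians were -0.10 and -0.15. AID-Yeats2 against AID-Zzz3 gave 0 calls in the flanks and 0 over all peaks (0%) by edgeR and by DESeq2. At an unadjusted p, 2 flank peaks (2.13%) were higher and 0 lower, against 2.54% and 2.59% of all peaks.

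**Figure D5:**
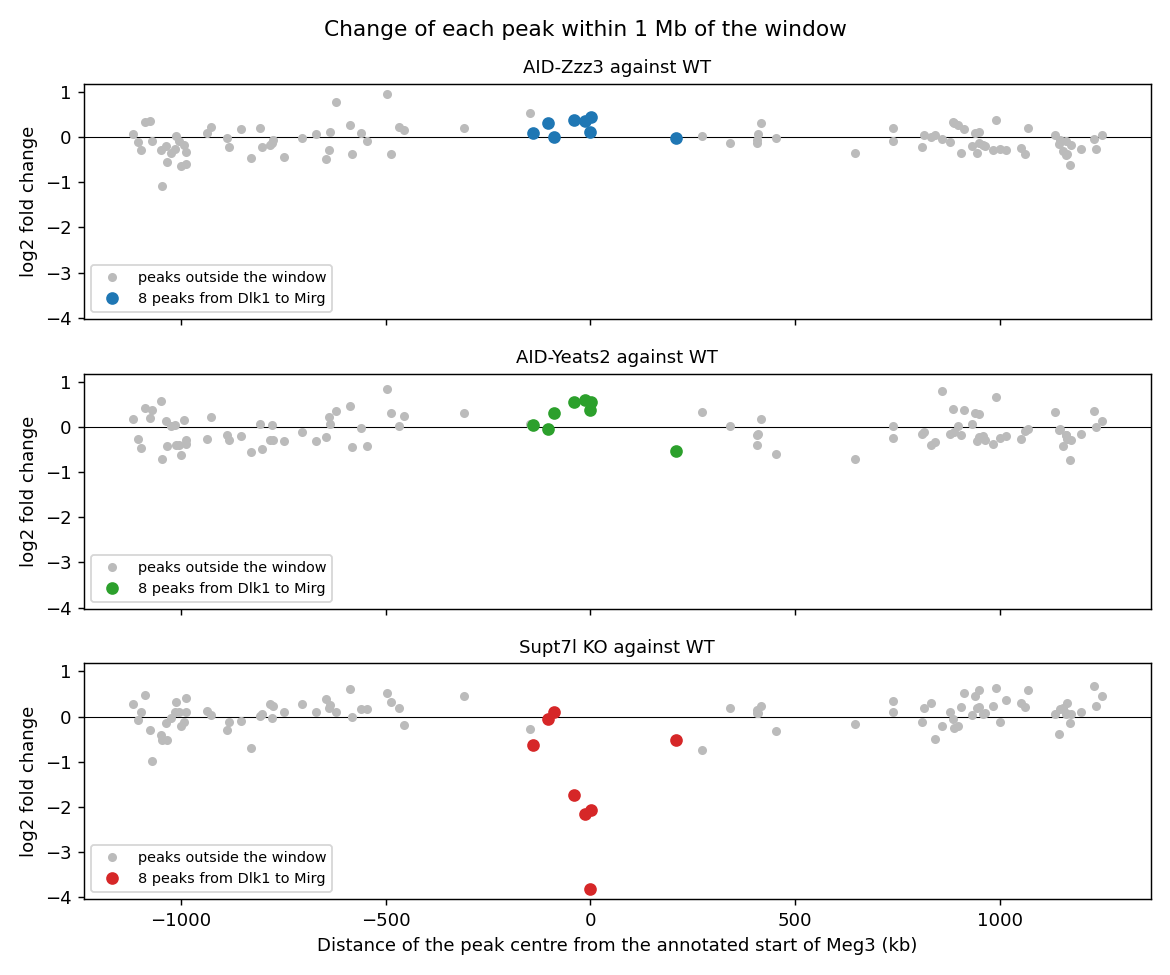
Log2 fold change against WT (y axis) of every tested peak within 1 Mb of the window by its distance from the annotated Meg3 start in kb (x axis), in 1 panel per mutant line, with the 8 peaks of the window in colour. In Supt7l KO the 4 coloured points between -3.80 and -1.73 stand below all 94 grey points, of which the lowest is at -0.98.

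Between the ATAC lines and Supt7l KO, 2 of the 94 flank peaks were higher and 13 lower in the ATAC lines (edgeR), or 2.13% and 13.8%, where 8.57% and 8.98% of all tested peaks were. Together that was 16% of the flank peaks and 17.6% of all peaks, so with both directions pooled the flanks held no larger share of calls. By direction, they held a larger share of lower calls and a smaller share of higher calls than all peaks. Of all promoters, 3.47% were called higher and 24.0% lower. The 5 with the smallest adjusted p were the promoter of Wars, a tryptophanyl-tRNA synthetase (log2 difference -0.74 ± 0.13 SE, adjusted p = 2.08e-05), a site past the start of B930059L03Rik (-0.56 ± 0.11, 9.26e-05), an intronic site of Eml1, a microtubule-binding protein (1.13 ± 0.25, 8.55e-04), the promoter of Hsp90aa1, a chaperone (-0.56 ± 0.13, 9.67e-04), and that of Ppp2r5c, a regulatory subunit of protein phosphatase 2A (-0.47 ± 0.11, 0.00101; edgeR for all). The Eml1 site, on the far side of Begain from Dlk1, had 4.68 ± 2.23 CPM in Supt7l KO and 9.38 ± 2.72 in WT. The Gm9661 site just past the window was the other one higher in the ATAC lines (0.92 ± 0.29; edgeR adjusted p = 0.0191), with 4.12 ± 2.09 CPM in Supt7l KO, 7.12 ± 2.96 in WT, 7.19 ± 1.36 in AID-Zzz3 and 9.09 ± 3.95 in AID-Yeats2.

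Promoters of the domain's other genes were measured for comparison. Of 8 listed neighbours, 5 had a promoter peak, and none was called against WT in any line by edgeR or DESeq2, where edgeR called 0.893% to 1.21% of the 15557 promoters, too few for 5 genes to show a difference from the rest. Dio3, the paternally expressed thyroid hormone deiodinase at the distal end, had 21.2 ± 3.19 CPM in WT and 23.1 ± 5.82 in Supt7l KO (log2 change 0.11, edgeR adjusted p = 0.854). Begain, at the proximal end, had 10.3 ± 3.61 and 12.7 ± 5.41 CPM (0.33, edgeR adjusted p = 0.637). Wars, Slc25a29 and Ppp2r5c had log2 changes of 0.39, 0.28 and 0.20. At an unadjusted p under 0.05 the 5 gave 2 higher in Supt7l KO, where 8.68% of all promoters were higher, 2 lower in AID-Zzz3, where 14.2% were lower, and 0 in AID-Yeats2. Against Supt7l KO, edgeR called 3 of the 5 (60%) lower in the mean of the ATAC lines and 0 higher. They were Wars, Slc25a29 and Ppp2r5c. Of all promoters, 24.0% were called lower and 3.47% higher, and 5 genes are few for a comparison with those shares.

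Genes known to keep or read imprints were listed as the other part of the pathway, from ZFP57, TRIM28 and DNA methyltransferases to Polycomb and CTCF, and 26 of 30 had a promoter peak. None of the 26 was called against WT in any of the 3 lines by edgeR or DESeq2, a count that the same shares of all promoters also give. In Supt7l KO the median log2 change was 0.13, against 0.090 over 15557 promoters, with 11.5% higher and 0 lower at an unadjusted p under 0.05, against 8.68% and 2.73% of all promoters. Zfp57, which binds the methylated control region, had 0.17 (edgeR adjusted p = 0.599), Trim28, its corepressor partner, 0.12 (0.741) and Dnmt1, the maintenance methyltransferase, -0.036 (0.944). In AID-Zzz3 and AID-Yeats2 the medians were -0.18 and -0.14, against -0.11 and -0.12 over all promoters, with 1 higher and 5 lower, or 19.2% lower, at an unadjusted p in each, where 14.2% and 15.7% of all promoters were lower. Against Supt7l KO, 5 of the 26 (19.2%) were lower in the mean of the ATAC lines and 0 higher, where 24.0% and 3.47% of all promoters were, so the list held no larger share of lower promoters than the rest. They were Jarid2, a partner of Polycomb (log2 difference -0.46, edgeR adjusted p = 0.00493), Tet2, a methylcytosine dioxygenase (-0.37, 0.00636), Ehmt1, a histone methyltransferase (-0.57, 0.00733), the DNA glycosylase Tdg (-0.56, 0.0306) and the insulator protein gene Ctcf (-0.35, 0.0335).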

How the data were processed

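ATAC-seq was deposited as 1 table of 70150 merged peaks with raw counts per peak for 16 libraries, counted by the authors. The same table holds the authors' log2 fold changes and adjusted p-values, per the file headers, and the deposited distance in bp to a transcription start (Ensembl 94). Per the submitters' processing notes, the build was mm10 and the tools included Bowtie2 2.2.6, DESeq2 1.16.1, HOMER and MACS2 2.1.1.20160309; their settings are not given in the sources used here. A merged list means that every library was counted over the same regions. The authors' p-values, the 16 deposited columns of normalised values and 4 of group means were not used.

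Counts were fitted here with edgeR 4.0.16 in R 4.3.3 (quasi-likelihood F tests, two-sided, TMM scaling, filterByExpr, no covariate) on all 16 libraries and 69692 peaks, with Benjamini-Hochberg adjustment over all peaks and a threshold of 0.05. The fit was tested on simulated data with known changes. CPM used TMM-scaled totals (factors 0.967 to 1.02) without a prior, and log2 values per library a prior count of 2. The SE from edgeR is the size of the log2 change divided by the square root of its F statistic. Intervals and the limit of 3 counts cover counting error only. Starts are counted from 1. Promoter peaks were those up to 1000 bp from a start, the most open per gene. Flanks reached 1 Mb. Alternatives were DESeq2 1.42.0, other scalings, no filter, only the groups compared, replicate blocks and leaving out each library.

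The window, its members and the gene lists were chosen with earlier results of these data known. Described in full were all 8 peaks. From the flanks and the list of imprint regulators, called peaks were named, at most the 5 with the smallest adjusted p per comparison, and of the most similar peaks the 5 with the highest r; Zfp57, Trim28 and Dnmt1 were added after their values were seen. The sum over the 4 Meg3-side peaks was also added after the data were seen. Of the regulators 26 of 30 and of the neighbouring genes 5 of 8 had a promoter peak. Replicates are known only as labelled samples, so p-values measure the spread between these libraries. No genome sequence was used, so no peak sequence is shown.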

Additional observations from a re-analysis of the deposited data

Results flagged for a closer look

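At the Dlk1 promoter peak 1 library stood away from the other libraries of its line: AID-Yeats2 2 had 9.86 CPM against 6.89 to 7.15 in the other 3 and passed Dixon's test, with a gap to the nearest of 0.898 of the line's range. Of 44 groups of 4 libraries tested this was the only one, and chance flags about 1 in 20.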

How the results depend on the processing

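The window was chosen by these counts, so a stable value in it is no support. In the fit of only Supt7l KO and WT, the filter on low counts left out the Gm27528 peak and the Dlk1 peak farthest upstream. The log2 change of Meg3 -1.9 kb in Supt7l KO was -4.63 without Supt7l KO 1, the library with 6 of its 10 counts. Changes of the 4 Meg3-side peaks in that comparison kept their sign, from -4.63 to -1.44. The sign was not stable for Meg3 -1.9 kb in AID-Zzz3, whose change ran from -0.13 to 0.36.

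Counts of 0 in the flanks became 1 in some settings. In AID-Zzz3 this was 1 lower with either replicate block and, among fits without 1 library, 0 to 1. In AID-Yeats2 it was 1 higher with DESeq2 size factors, library totals alone, loess offsets, no filter, the DESeq2 test, only the groups compared and either block, and 0 to 1 without 1 library. In Supt7l KO it was 1 higher with the DESeq2 test, 1 lower with library totals alone, 1 higher and 1 lower with either block, and 0 to 1 in each direction without 1 library. Among the imprint regulators, AID-Zzz3 gave 0 to 1 higher without 1 library.

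Same-numbered libraries had correlated deviations of 0.0163 to 0.111, with 1 of 24 over 0.1, so the numbers were not taken as pairs, and 11 of 16 libraries were closest to their own number. The deviations did split into libraries 1 and 2 and libraries 3 and 4: within these, 48 of 48 correlations were above 0, and across them 48 of 48 were below 0, the lowest at -0.109. The labels do not say what sets them apart. With these as a replicate block of 2 levels, all peaks gave 413 higher and 769 lower in Supt7l KO against 238 and 519, 781 and 508 in AID-Zzz3 against 442 and 241, and 707 and 496 in AID-Yeats2 against 365 and 208; with the replicate block of 4 numbers they gave 404 and 735, 754 and 503, and 678 and 480. In the window the 2-level block left the Meg3 exon change in Supt7l KO at -2.05 and that of Meg3 -1.9 kb at -3.81. With only the Meg3-named peaks, the locus sum was 140.4% of WT in AID-Yeats2 and 16.9% in Supt7l KO, and with the 4 Meg3-side peaks 143.6% and 21.0%, in place of 124.4% and 47.6%. Ranked by Spearman's rho, 2 of the 10 most similar peaks were shared. Depth limits the weakest sites: the Gm27528 and Meg3 -1.9 kb peaks held 0 to 7 counts per Supt7l KO library, so their remaining level is poorly known.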
